A study of Mus musculus with 8 samples.

Results

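The genes described here are 38 mRNAs of mature oligodendrocytes and of myelin, taken as every row of the FPKM table whose gene name is on a fixed list. This list, its roles, and the pairs and marker lists below were chosen with earlier results of these data known. All 38 were found among the 13996 genes of the table, and all 38 were among the 13982 genes tested. FPKM counts sequenced fragments per length of transcript, scaled to all mapped fragments of the library, so that levels can be compared between genes. The mice were male C57BL/6 mice of 16 weeks, from which the brain cortex was taken. The 4 normal mice had received a conventional diet and the 4 high fat diet (HFD) fed mice a diet with 60% fat by weight for 8 weeks. One rRNA-depleted, strand-specific library was made from each mouse, and the comparison asked how the cortex transcriptome of HFD fed mice differs from that of normal mice.

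Oligodendrocytes wrap axons in many layers of membrane, the myelin sheath, which speeds conduction and supports the axon. Sheath proteins hold the layers together, lipid enzymes make the galactolipids in which myelin is rich, and gap junctions and carriers move ions and metabolites through the cell. Transcription factors such as Myrf switch on these genes when a precursor matures. In the mouse cortex, myelinated fibers are most dense in the deep layers and in the white matter below them.

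Most of the myelin genes were lower in HFD fed mice, with median log2 fold changes of -0.87 for sheath proteins, -0.86 for lipid enzymes, -0.56 for gap junction and carrier genes and -0.39 for regulators and receptors, given as descriptions. Of the 38 genes, 28 fell (limma, adjusted p below 0.05), Il33 rose, and 9 did not pass the test. Over all genes tested, 15.3% fell and 17.7% rose by the same rule. The decrease exceeded 1.5-fold for 20 of the 38, where 2.9% of all genes did so, and the increase exceeded it for none of the 38, where 4.23% did. The median log2 fold change was -0.62 over the 38 genes and 0.00311 over all genes tested. In 18 genes each HFD fed mouse was below each normal mouse, where 14.7% of all genes had that pattern, and Il33 was the one gene with the opposite pattern, where 17.2% had it. These are values of whole tissue, in which fewer oligodendrocytes and less of an mRNA per oligodendrocyte cannot be told apart.

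**Figure D1:**
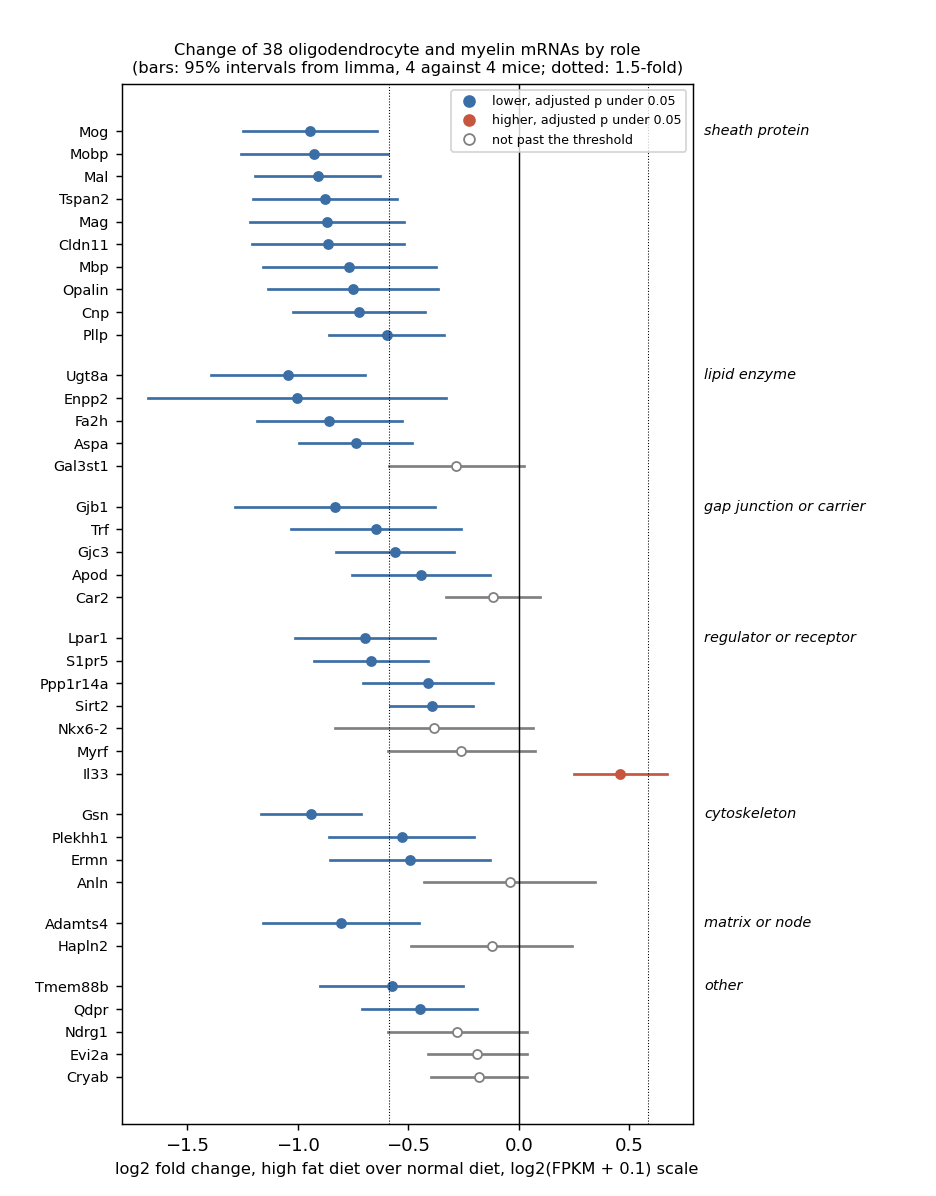
Log2 fold changes of the 38 genes (x axis, HFD over normal diet on the log2(FPKM + 0.1) scale) with 95% intervals from limma over 4 against 4 mice, grouped by role. Filled blue points fell, the filled red point (Il33) rose, and open grey points did not pass an adjusted p of 0.05, while the dotted lines stand at 1.5-fold. All 10 sheath proteins lie at or beyond the left dotted line, whereas regulators range from -0.69 to 0.46.

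By mouse, the 38 genes together held 3719, 4515, 4139 and 2811 FPKM in normal mice 1 to 4 and 2162, 2073, 2722 and 2251 in HFD fed mice 1 to 4. The groups did not overlap in this sum, but normal mouse 4 and HFD fed mouse 3 lay close to each other. Normal mouse 4 had the lowest value of its diet for 38 of the 38 genes, and normal mouse 2 the highest for 31. Among HFD fed mice, mouse 3 had the highest value for 36 of the 38 genes. For 19 genes HFD fed mouse 3 was at or above normal mouse 4, while another HFD fed mouse reached that level for 9 genes. The spread of log2 values was larger among normal mice than among HFD fed mice for 31 of the 38 genes, and for 58.5% of all genes tested. Thus a low or a high mouse was low or high across nearly the whole list, and members are not independent measurements of the diet.

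**Figure D2:**
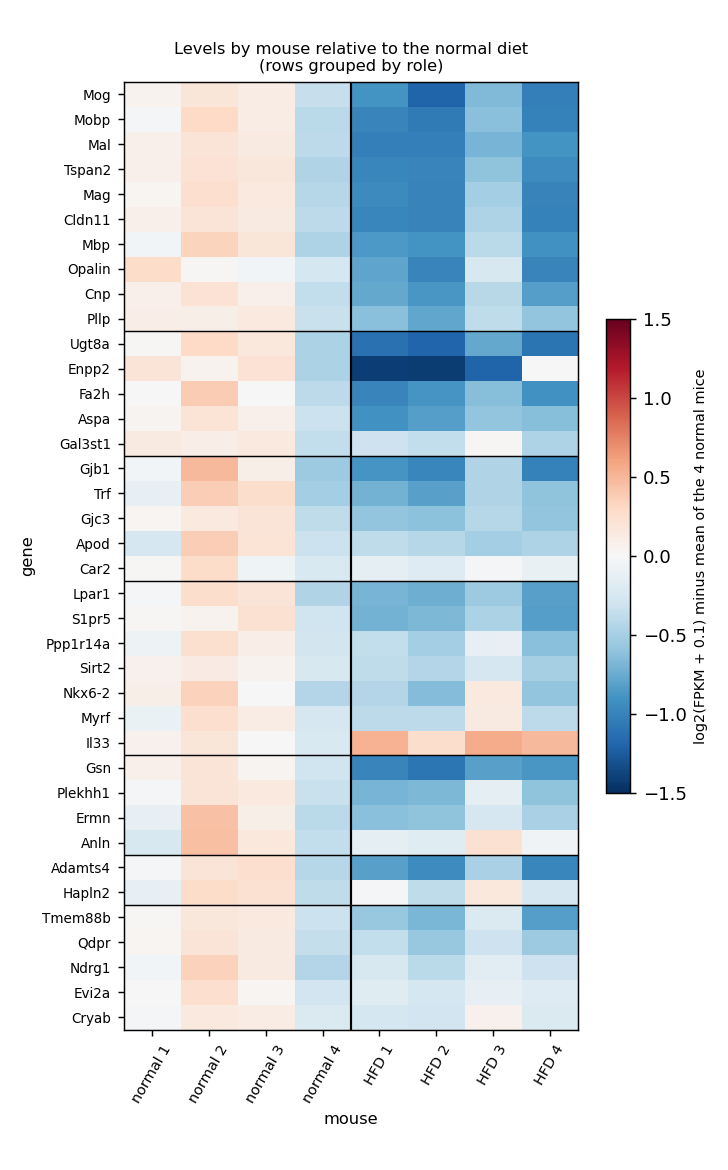
Levels of the 38 genes (rows, grouped by role) in the 8 mice (columns), as log2(FPKM + 0.1) minus the mean of the 4 normal mice, with blue for lower and red for higher. Normal mouse 4 is blue in each row, HFD fed mouse 3 is paler than the other HFD fed mice in most rows, and the row of Il33 is red in all 4 HFD fed mice.

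Marker mRNAs of other regions and cell types also differed between the mice, and these values stand beside all results that follow. Striatal marker mRNAs, with Penk, Ppp1r1b, Pde10a and Rasd2 as the most abundant, summed to 281 to 507 FPKM in normal mice and 101 to 116 in HFD fed mice, and 12 of 12 tested fell, none of them listed at 0. Cerebellar markers (Calb1, Gabrd, Cbln1 and Car8 lead) summed to 105, 388, 501 and 163 FPKM in normal mice 1 to 4 and to 71.1 to 76.4 in HFD fed mice. Of these, 7 of 10 tested fell, and the one outside the test is listed at 0 in at least one mouse. Thalamic markers (Calb2, Rora, Slc17a6 and Prkcd lead) ranged from 78.5 to 213 and from 58 to 61.8 FPKM, with 4 of 10 lower. Markers of cortical projection neurons (Slc17a7, Nrgn, Neurod6 and Rasgrf2 lead) ranged over 529 to 805 FPKM under the normal diet and 792 to 1052 under HFD, with 7 of 12 higher and 0 lower, so the defining mRNAs of cortex were present in each mouse. Astrocyte markers (Aldoc, Slc1a2, Slc1a3 and S100b lead) ranged from 1349 to 1566 and from 1328 to 1406, with 4 of 12 higher and 4 lower, and microglial markers (C1qa, C1qb, C1qc and Csf1r lead) from 185 to 228 and from 198 to 210, with 1 of 11 higher. Meningeal markers (Ptgds, Dcn, Igf2 and Fn1 lead) ranged from 611 to 931 and from 719 to 976 FPKM, with 4 of 12 lower. The part of these marker differences in the myelin result was not tested. Without normal mice 2 and 3, which had the most cerebellar mRNA, 15 of the 38 genes fell and the median log2 fold change was -0.44, while 8.69% of all genes fell in that smaller comparison. Normal mice 1 and 4, which remained, still held 507 and 281 FPKM of striatal markers. They also held 105 and 163 FPKM of cerebellar markers, so both sums stayed above those of each HFD fed mouse.

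**Figure D3:**
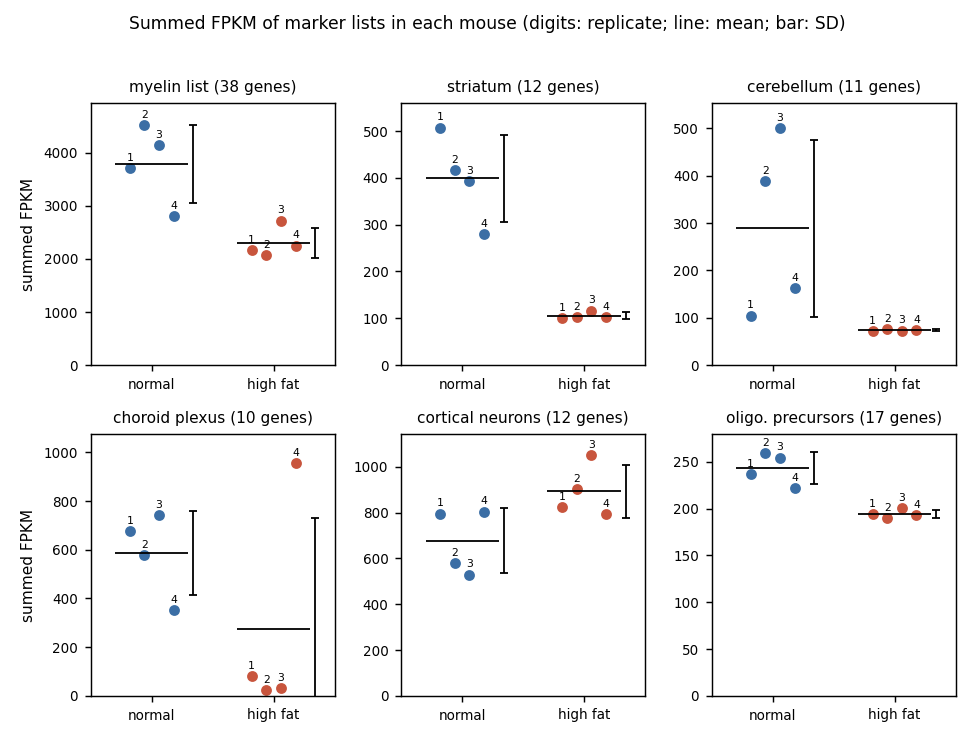
Summed FPKM (y axes, from 0) of the myelin genes and of 5 marker lists in each mouse, with the replicate number at each point, the mean as a line and the SD as a bar that is cut off at 0 for choroid plexus in HFD fed mice. The sums of the myelin genes, of striatal and cerebellar markers and of genes of precursors and newly formed cells separate the diets without overlap. Cerebellar sums also vary widely among normal mice, and HFD fed mouse 4 stands above all others for choroid plexus at 957 FPKM.

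All 10 mRNAs of sheath proteins fell, each by more than 1.5-fold, with a median log2 fold change of -0.87 and a range of -0.95 to -0.60. Mbp, whose protein seals the cytoplasmic faces of the membrane layers, was the most abundant gene of the list (chromosome 18 of GRCm38, 82475146 to 82585637). Its FPKM was 1215, 1573, 1416 and 908 in normal mice and 690, 675, 950 and 665 in HFD fed mice. HFD fed mouse 3 was above normal mouse 4, so the diets overlapped. Mbp fell with a log2 fold change of -0.77 and a standard error (SE) of 0.18 (limma adjusted p = 0.00982). Mobp, another protein of the compact sheath (chromosome 9, 120149707 to 120181484), was second in abundance and separated the diets more clearly. It was at 613, 766, 672 and 470 FPKM in normal mice and at 312, 297, 402 and 307 in HFD fed mice, a log2 fold change of -0.93 (SE 0.15, limma adjusted p = 0.00231). Part of an exon of Mobp is shared with the gene model Gm38642 on the same strand, among which the counting could split reads.

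Mog, a glycoprotein of the outermost layer (chromosome 17, 37010743 to 37023398), had the largest decrease among the sheath proteins. Its FPKM was 36.1, 39.6, 37.7 and 27.3 in normal mice and 18.6, 15.1, 22.0 and 17.1 in HFD fed mice. Without any overlap between the diets, Mog fell by 48.1% (log2 fold change -0.95, 95% interval -1.25 to -0.64, limma adjusted p = 0.00144). Mag, the adhesion protein of the innermost layer facing the axon (chromosome 7, 30899176 to 30914873), fell from 113 ± 21.6 to 61.8 ± 11.3 FPKM (SD, n = 4 each, limma adjusted p = 0.0036). Mal and Pllp are tetraspan proteins of lipid rafts, and Cldn11 forms the tight junctions between layers. Mal (146 ± 24.8 to 77.1 ± 8.5 FPKM) and Cldn11 (97.8 ± 16.7 to 53.8 ± 10.9 FPKM) had log2 fold changes of -0.91 and -0.86, and Tspan2, a tetraspanin, had one of -0.88. The smallest changes among sheath proteins were those of Cnp, the cyclic nucleotide phosphodiesterase of uncompacted myelin (168 ± 27.4 to 101 ± 15.5 FPKM, -0.72), of Opalin (13.7 ± 2.15 to 8.22 ± 2.23 FPKM, -0.75) and of Pllp (28.6 ± 4.09 to 18.8 ± 2.24 FPKM, -0.60). All 10 passed the threshold in each of the 8 comparisons that left out 1 mouse.

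**Figure D4:**
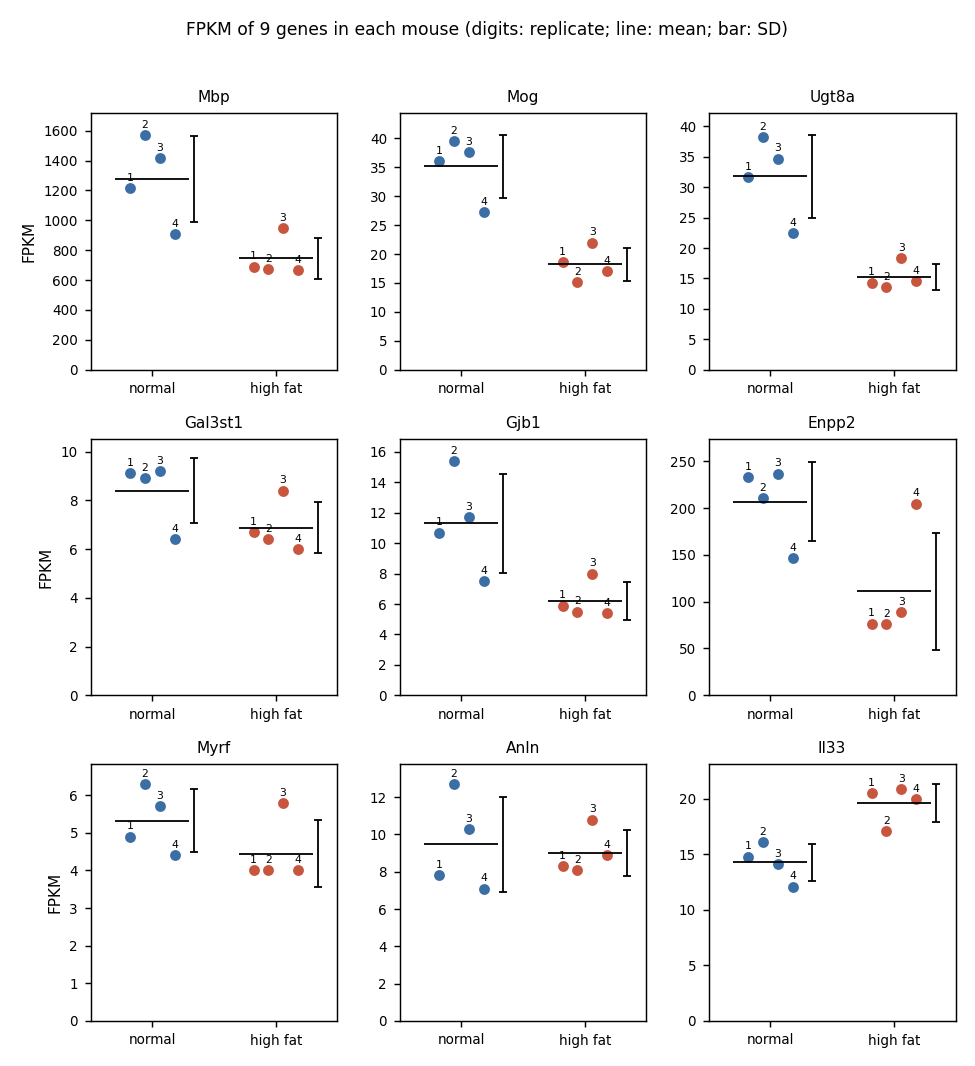
FPKM (y axes, from 0) of 9 genes in each normal and HFD fed mouse, with the replicate number at each point, the mean as a line and the SD over 4 mice as a bar. Mog and Ugt8a separate the diets, Mbp, Gal3st1, Gjb1, Myrf and Anln overlap, Enpp2 is at the level of normal mice in HFD fed mouse 4 but not in the other HFD fed mice, and Il33 is higher in every HFD fed mouse.

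Successive enzymes of one lipid pathway had log2 fold changes from -1.04 to -0.28, but the differences between them did not pass after adjustment. Ugt8a makes galactosylceramide, the main glycolipid of myelin, Fa2h hydroxylates its fatty acid, and Gal3st1 adds the sulfate that turns it into sulfatide. Ugt8a (chromosome 3, 125865271 to 125938619) had the largest decrease of the 38 genes. Its FPKM was 31.6, 38.3, 34.7 and 22.5 in normal mice and 14.3, 13.6, 18.3 and 14.5 in HFD fed mice, so that no values overlapped. It fell by 51.5% (log2 fold change -1.04, SE 0.16, limma adjusted p = 0.00172). Fa2h (chromosome 8, 111345135 to 111393824) fell from 10.8 ± 2.38 to 5.85 ± 0.656 FPKM (SD, n = 4 each, log2 fold change -0.86, limma adjusted p = 0.00298). Gal3st1 (chromosome 11, 3983636 to 3999326) was at 9.1, 8.9, 9.2 and 6.4 FPKM in normal mice and at 6.7, 6.4, 8.4 and 6.0 in HFD fed mice. Normal mouse 4 lay among the HFD fed mice, and the log2 fold change of -0.28 (95% interval -0.59 to 0.03) did not pass (limma adjusted p = 0.141). Without normal mouse 4, Gal3st1 was at -0.41 and past the threshold (limma adjusted p = 0.0214). Compared within each mouse, the log2 ratio of Ugt8a to Gal3st1 went from 1.89 ± 0.143 to 1.13 ± 0.0858 (SD, n = 4 each), a difference of -0.76 with a 95% interval of -0.97 to -0.56. The exact two-sided permutation p was 0.0286, the smallest possible, and 0.0514 after adjustment over the 9 pairs described below. The ratio of Ugt8a to Fa2h had the same exact permutation p and adjusted p.

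Aspa and Enpp2 complete the lipid enzymes. Aspa, which splits N-acetylaspartate into acetate for lipid synthesis (chromosome 11, 73304992 to 73329596), fell from 16.5 ± 2.44 to 9.8 ± 1.01 FPKM (SD, n = 4 each, log2 fold change -0.74, limma adjusted p = 0.00198). Enpp2, or autotaxin, makes lysophosphatidic acid (chromosome 15, 54838901 to 54952892) and is also a leading mRNA of choroid plexus epithelium. Its FPKM was 234, 211, 237 and 147 in normal mice and 76.5, 75.9, 88.6 and 205 in HFD fed mice. HFD fed mouse 4 thus reached the level of normal mice, and in the same mice Ttr, the most abundant choroid plexus marker, was at 647, 546, 707 and 333 FPKM and at 73.4, 18.6, 24.4 and 921. The 10 choroid plexus markers in the table (Ttr, Folr1, Kl and Calml4 lead) summed to 351 to 741 FPKM in normal mice and to 79.5, 23.2, 30.4 and 957 in HFD fed mice 1 to 4, with 3 of 10 lower and none listed at 0. The part of choroid plexus in the values of Enpp2 was not tested. Enpp2 fell (log2 fold change -1.01, SE 0.30, limma adjusted p = 0.0298), and without HFD fed mouse 4 the log2 fold change was -1.34 (limma adjusted p = 0.00208). Its call was lost without normal mouse 1, 2 or 3 or HFD fed mouse 1, 2 or 3, each left out alone, the highest limma adjusted p being 0.0829.

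Of the 5 gap junction and carrier genes 4 fell, with log2 fold changes from -0.83 to -0.44. Gjb1 and Gjc3 encode connexins of oligodendrocytes, the first of them (chromosome X, 101376378 to 101385629) in the outer sheath and the paranodal loops. Gjb1 was at 10.7, 15.4, 11.7 and 7.5 FPKM in normal mice and at 5.9, 5.5, 8.0 and 5.4 in HFD fed mice, and HFD fed mouse 3 lay above normal mouse 4. Its log2 fold change was -0.83 (SE 0.20, limma adjusted p = 0.013), against -0.56 (SE 0.12, limma adjusted p = 0.00719) for Gjc3 (chromosome 5, 137953461 to 137963098), whose diets did not overlap. Trf, the iron carrier transferrin (chromosome 9, 103204001 to 103230444), fell from 186 ± 48.3 to 116 ± 12.7 FPKM (SD, n = 4 each, limma adjusted p = 0.019), and without HFD fed mouse 2 its limma adjusted p was 0.0563. Apod, a lipid-binding lipocalin (chromosome 16, 31296192 to 31314808), fell from 141 ± 32.9 to 101 ± 3.52 FPKM (SD, n = 4 each, limma adjusted p = 0.0357). Its call was lost without normal mouse 2 or 3 or any one HFD fed mouse, the highest limma adjusted p being 0.0876. Car2, a carbonic anhydrase (chromosome 3, 14886273 to 14900770), was at 91.3, 109, 86.2 and 76.6 FPKM in normal mice and at 82.3, 78.5, 88.9 and 83.3 in HFD fed mice. Here the HFD fed mice lay within the range of the normal mice (log2 fold change -0.12, 95% interval -0.33 to 0.10, limma adjusted p = 0.375).

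The regulators and receptors were the most mixed group, with 4 of 7 lower, 1 higher and 2 not past the threshold. Myrf, the transcription factor that activates myelin genes in maturing oligodendrocytes (chromosome 19, 10208272 to 10240748), was the least abundant of the 38 genes. It was at 4.9, 6.3, 5.7 and 4.4 FPKM in normal mice and at 4.0, 4.0, 5.8 and 4.0 in HFD fed mice. With 3 HFD fed mice below each normal mouse and HFD fed mouse 3 above normal mice 1, 3 and 4, the log2 fold change was -0.26 (95% interval -0.59 to 0.07, limma adjusted p = 0.203). Nkx6-2, a homeobox factor of the same cells (chromosome 7, 139579376 to 139582797), was at 7.4, 8.9, 7.0 and 5.1 FPKM and at 5.1, 4.4, 7.7 and 4.6 (log2 fold change -0.38, 95% interval -0.83 to 0.06, limma adjusted p = 0.166). Without HFD fed mouse 3, both factors passed the threshold, Myrf at -0.39 (limma adjusted p = 0.0438) and Nkx6-2 at -0.56 (limma adjusted p = 0.0375). Exons of Nkx6-2 overlap those of Inpp5a on the opposite strand.

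Il33, a cytokine kept in the nucleus of oligodendrocytes and astrocytes, was the only gene of the 38 that rose (chromosome 19, 29925114 to 29960718). Its FPKM was 14.8, 16.1, 14.1 and 12.1 in normal mice and 20.5, 17.1, 20.9 and 20 in HFD fed mice. The lowest HFD fed mouse was above the highest normal mouse, with a log2 fold change of 0.46 (95% interval 0.25 to 0.67, limma adjusted p = 0.00615). In the 8 comparisons that left out 1 mouse, Il33 stayed between 0.38 and 0.52 and past the threshold. The astrocyte markers given above changed in either direction, and their part in the value of Il33 was not tested. Among the other regulators, the lysophospholipid receptors S1pr5 (8.45 ± 1.24 to 5.25 ± 0.545 FPKM) and Lpar1 (18.3 ± 3.81 to 11.1 ± 0.885 FPKM) fell with similar log2 fold changes of -0.67 and -0.69. Sirt2, a deacetylase of tubulin, fell by 23.9% (58.1 ± 6.18 to 44.1 ± 3.34 FPKM, SD, n = 4 each, limma adjusted p = 0.00726), without overlap. Ppp1r14a, a phosphatase inhibitor, had a log2 fold change of -0.41 with a limma adjusted p of 0.0382. Its call was lost without normal mouse 1, 2 or 3 or HFD fed mouse 1, 2 or 4, the highest limma adjusted p being 0.0983.

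Genes of the cytoskeleton and of the matrix ranged from -0.94 to -0.04 on the log2 scale, and 4 of these 6 fell. Gsn, which severs actin filaments (chromosome 2, 35256380 to 35307892), was at 54.7, 59.3, 53.4 and 42.4 FPKM in normal mice and at 26.2, 24.5, 29.5 and 28.4 in HFD fed mice. Its diets lay far apart, and it had the smallest adjusted p of the list (log2 fold change -0.94, SE 0.10, limma adjusted p = 0.000644). Ermn, an actin-binding protein of late oligodendrocytes, and Plekhh1 fell with log2 fold changes of -0.49 (limma adjusted p = 0.0411) and -0.53 (limma adjusted p = 0.0218). The calls of both were lost without normal mouse 2 or 3 or HFD fed mouse 1, 2 or 4, the highest limma adjusted p being 0.101 for Ermn and 0.0629 for Plekhh1. Anln, a scaffold for septin filaments in myelin (chromosome 9, 22332012 to 22389188), was at 7.8, 12.7, 10.3 and 7.1 FPKM in normal mice and at 8.3, 8.1, 10.8 and 8.9 in HFD fed mice. The diets overlapped throughout (log2 fold change -0.04, 95% interval -0.43 to 0.35, limma adjusted p = 0.873), and the sign of Anln changed without normal mouse 2, at 0.11.

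Hapln2, a link protein of the matrix at nodes of Ranvier (chromosome 3, 88021750 to 88027583), was at 8.2, 10.8, 10.5 and 6.8 FPKM in normal mice and at 8.8, 6.8, 10 and 7.5 in HFD fed mice. It had a log2 fold change of -0.12 (95% interval -0.49 to 0.24, limma adjusted p = 0.591). Adamts4, a protease that cleaves matrix proteoglycans (chromosome 1, 171250421 to 171260637), was at a like level in normal mice but fell without overlap, from 9.6, 11.1, 11.6 and 7.2 FPKM to 5.5, 5.0, 6.9 and 4.9. Its log2 fold change was -0.80 (SE 0.16, limma adjusted p = 0.00517).

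Of the 5 remaining genes, Tmem88b (log2 fold change -0.58, limma adjusted p = 0.0146) and Qdpr, which regenerates the biopterin cofactor (-0.45, limma adjusted p = 0.0171), fell. Without HFD fed mouse 2 the limma adjusted p of Qdpr was 0.0514. Cryab, a small heat shock protein, Ndrg1 and Evi2a did not pass the threshold. Their levels were 99.4 ± 10.9, 38.9 ± 8.49 and 16.6 ± 2.54 FPKM in normal mice and 87.9 ± 10.5, 31.5 ± 2.2 and 14.4 ± 0.574 in HFD fed mice (SD, n = 4 each). The log2 fold changes were -0.18, -0.28 and -0.19, with 95% intervals that reached 0.04 in each case. Without normal mouse 4, Ndrg1 (-0.42) and Evi2a (-0.28) passed the threshold.

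The difference in size between genes was then measured within each mouse, as the log2 ratio of a gene to Mbp, which removes what Mbp and the gene share. Of 37 genes, 6 were less lowered than Mbp (limma over all genes, adjusted p below 0.05), where 84.1% of all genes tested were so. They were Il33, Anln, Car2, Hapln2, Cryab and Evi2a, with log2 differences from Mbp of 1.23, 0.72, 0.65, 0.64, 0.59 and 0.58. None was more lowered than Mbp by limma, with 0 also at an unadjusted p below 0.05, where 0.594% of all genes passed the adjusted threshold. The count of 6 was 3 without normal mouse 3, HFD fed mouse 1 or HFD fed mouse 4, 11 without normal mouse 4 and 2 without normal mice 2 and 3. Without HFD fed mouse 4, 1 gene was more lowered than Mbp, and it was Enpp2. Limma sets its spread with all genes, and the SE of the difference from Mbp was nearly alike for each member, from 0.24 (Tmem88b) to 0.26 (Mobp). The limma counts thus say little of how closely a gene followed Mbp from mouse to mouse. For this reason an exact two-sided permutation test per gene was added. By this test 13 genes were less lowered and 3 (Mag, Mobp and Ugt8a) more lowered than Mbp with the smallest possible exact p of 0.0286, which 39.9% and 0.322% of all genes tested reached in the same directions. None passed after adjustment over all genes tested, where the smallest adjusted p by the exact permutation test was 0.0694.

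Pairs of genes with related functions gave the same kind of contrast. The pairs were chosen with earlier results of these data known, so their p-values are descriptions of these mice. In 5 of the 9 pairs the log2 ratio separated the diets without overlap and had the smallest exact p that 4 against 4 mice allow (two-sided exact permutation, p = 0.0286, or 0.0514 after adjustment over the 9 pairs). None of the 9 passed an adjusted threshold of 0.05. Besides Ugt8a with Gal3st1, these were Hapln2 with Adamts4 (difference of log2 fold changes 0.68, 95% interval 0.52 to 0.84), Mal with Pllp (-0.31, interval -0.44 to -0.19), Mobp with Cnp (-0.20, interval -0.30 to -0.10) and Ugt8a with Fa2h (-0.19, interval -0.35 to -0.02). Differences were not detectable for Mog with Mag (-0.08, interval -0.24 to 0.08), Gjb1 with Gjc3 (-0.27, interval -0.62 to 0.08), Myrf with Nkx6-2 (0.13, interval -0.14 to 0.39) and S1pr5 with Lpar1 (0.03, interval -0.17 to 0.22). The ratio of Mobp to Cnp was nearly constant among HFD fed mice, with an SD of 0.0175 on the log2 scale, although the level of each gene varied.

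**Figure D5:**
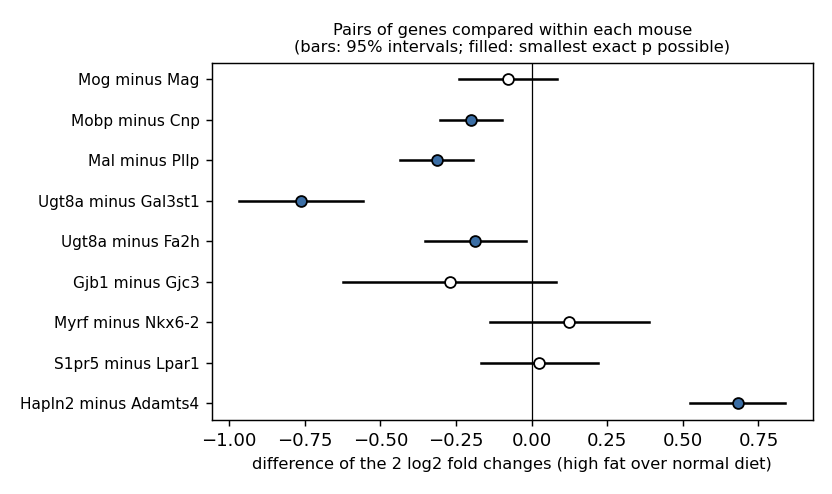
Difference between the log2 fold changes of the genes of each pair (x axis, HFD over normal diet), from the log2 ratio in each mouse, with 95% intervals from the pooled spread over 4 and 4 mice. Filled points are the 5 pairs with the smallest exact p possible (0.0286), of which Ugt8a with Gal3st1 (-0.76) and Hapln2 with Adamts4 (0.68) lie farthest from 0.

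The size of the change followed abundance and transcript length only loosely across the 38 genes. Spearman's rho was -0.31 between mean FPKM and log2 fold change and -0.15 between exonic length and log2 fold change, given as descriptions over genes that share the same 8 mice. Of the 12 most abundant genes 10 fell, and of the 12 least abundant 7 fell, where 15.3% of all genes tested fell. The genes lie on 16 chromosomes. Exons of some of them overlap exons of another gene in the table, among them Mobp, Nkx6-2, Cnp with Dnajc7, Sirt2 with Nfkbib and Plekhh1 with Pigh, and the sources used here do not say whether strand was used in counting.

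Promoter windows of RefSeq on GRCm38.p6, from 250 bases before to 50 bases after a transcription start, were found for 28 of the 38 genes. SOX factors, among them Sox10 of oligodendrocytes, bind sites such as ACAAAG and ACAATG, and Myrf binds a core that was searched as CTGGNAC, each on either strand. The SOX letters were found in 17 of 41 windows of myelin genes (41.5%) and in 28.6% of all 32851 windows. The Myrf letters were found in 14 of the 41 windows (34.1%) and in 19.3% of all windows. To show how unlike the promoters are, the 250 bases before the start follow for the 3 largest decreases and for the 2 smallest changes among genes with a single listed start, chosen after their values were seen, with matches to either motif in capitals.
Ugt8a, chr3:125938653-125938902, minus strand: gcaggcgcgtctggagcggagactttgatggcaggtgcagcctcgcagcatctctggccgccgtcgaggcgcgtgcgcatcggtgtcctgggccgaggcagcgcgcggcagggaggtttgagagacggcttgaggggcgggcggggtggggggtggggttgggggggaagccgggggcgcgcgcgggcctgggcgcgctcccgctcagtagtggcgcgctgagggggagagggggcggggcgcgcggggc
Mog, chr17:37023399-37023648, minus strand: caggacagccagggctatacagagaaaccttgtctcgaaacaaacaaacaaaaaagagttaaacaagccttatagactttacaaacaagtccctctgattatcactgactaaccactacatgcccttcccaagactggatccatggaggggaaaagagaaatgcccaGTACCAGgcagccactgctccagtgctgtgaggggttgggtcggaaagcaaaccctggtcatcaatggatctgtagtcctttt
Mobp, chr9:120149492-120149741, plus strand: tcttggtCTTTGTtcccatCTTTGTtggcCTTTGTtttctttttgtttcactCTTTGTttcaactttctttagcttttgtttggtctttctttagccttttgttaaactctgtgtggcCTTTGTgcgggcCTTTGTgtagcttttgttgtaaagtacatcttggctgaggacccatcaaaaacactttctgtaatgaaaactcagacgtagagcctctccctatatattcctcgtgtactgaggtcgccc
Anln, chr9:22389207-22389456, minus strand: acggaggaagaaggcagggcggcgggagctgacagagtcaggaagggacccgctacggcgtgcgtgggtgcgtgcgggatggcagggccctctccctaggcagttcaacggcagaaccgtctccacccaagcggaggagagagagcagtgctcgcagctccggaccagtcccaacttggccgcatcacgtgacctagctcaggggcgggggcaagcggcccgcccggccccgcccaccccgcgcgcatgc
Hapln2, chr3:88027512-88027761, minus strand: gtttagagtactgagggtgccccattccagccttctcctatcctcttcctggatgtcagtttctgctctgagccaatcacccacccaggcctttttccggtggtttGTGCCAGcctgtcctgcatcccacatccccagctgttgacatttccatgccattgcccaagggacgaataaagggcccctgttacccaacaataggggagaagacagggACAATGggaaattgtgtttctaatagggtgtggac

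Of these, Mobp holds 6 matches to the SOX letters, Mog holds 1 match to the Myrf letters, and Hapln2 holds 1 of each. Ugt8a and Anln, with the largest and the smallest change of the genes printed here, hold none in these bases. Ugt8a and Anln are also the sequences rich in G and C (76.8% and 70.4%), with 32 and 24 CpG dinucleotides, whereas Mobp has 40.8% and 4. Mog and Hapln2 have 46.8% and 52.4%, with 2 CpG dinucleotides each. A match is a description of sequence, not a bound site.

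Other genes of the lineage were compared by lists that hold none of the 38. Of 35 further mature oligodendrocyte genes tested 20 fell and 1 rose, with a median log2 fold change of -0.39. Of all genes tested, 15.3% fell and 17.7% rose. Klk6, a secreted protease, had the largest decrease of these, but varied widely among normal mice at 2.8, 9.7, 8.7 and 3.3 FPKM against 1.3, 1.4, 1.8 and 1.1 in HFD fed mice. Its log2 fold change was -1.87 (limma adjusted p = 0.00631), and it was named after its values were seen. The most abundant genes of this list, Tppp (175 ± 14.2 to 176 ± 4.28 FPKM), Pex5l, Nfasc and Tppp3, are not confined to oligodendrocytes, and their log2 fold changes were 0.02, 0.15, -0.10 and -0.21, of which that of Pex5l passed (limma adjusted p = 0.0464).

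Of 7 lineage transcription factors tested, 3 fell and 1 rose, where 15.3% and 17.7% of all genes tested did so. Sox10, which acts with Myrf, fell from 15.8 ± 1.53 to 12.6 ± 1.69 FPKM (SD, n = 4 each, log2 fold change -0.33, limma adjusted p = 0.0336), and Sox8 and Nkx2-2 fell with log2 fold changes of -0.23 and -0.74. Tcf7l2 was at 1.4, 5.4, 4.7 and 1.2 FPKM in normal mice and at 1, 1.7, 1 and 0.5 in HFD fed mice, and its log2 fold change of -1.32 did not pass (limma adjusted p = 0.073). This gene is also on the list of thalamic markers. Prkcd of that list was likewise highest in normal mice 2 and 3, at 11.7, 35.1, 30.1 and 6.9 FPKM in normal mice 1 to 4. The part of thalamus in the values of Tcf7l2 was not tested. Nkx2-2 and Tcf7l2 were named after their values were seen. Olig2 was higher in HFD fed mice (6.03 ± 0.785 to 7.47 ± 0.78 FPKM, log2 fold change 0.31, limma adjusted p = 0.0433), while Olig1, the most abundant of them, was at -0.22 and did not pass (limma adjusted p = 0.0988). The lower count of 3 was 1 without normal mouse 2 or 3 or HFD fed mouse 1 or 4, and the call of Olig2 was lost without normal mouse 1, 3 or 4 or HFD fed mouse 2, 3 or 4.

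Of 17 genes of precursors and newly formed oligodendrocytes, 8 fell and 2 rose, where 15.3% and 17.7% of all genes tested did so. Their summed FPKM lay between 221 and 259 under the normal diet and between 190 and 201 under HFD, with no overlap. Bcas1 (59.5 ± 12.4 to 32.9 ± 4.24 FPKM, log2 fold change -0.84, limma adjusted p = 0.00352), a marker of cells that begin to myelinate, was the most abundant of them and fell. So did Gpr17 (14.2 ± 0.881 to 9.28 ± 0.427 FPKM, log2 fold change -0.61, limma adjusted p = 0.000491), a receptor of committed precursors. Cspg4, a proteoglycan of dividing precursors and of pericytes, was higher (3.05 ± 0.129 to 3.98 ± 0.0957 FPKM, log2 fold change 0.37, limma adjusted p = 0.00493). The other gene that rose was Sox6 (log2 fold change 0.31, limma adjusted p = 0.0425), and Pdgfra was at 0.07 and did not pass (limma adjusted p = 0.305). Sox6 and Pdgfra were named after their values were seen. Thus the lower sum of this list does not hold gene by gene. Fyn (-0.19), Ptprz1 (-0.02) and Tnr (0.07) are abundant genes that neurons or astrocytes also express, and of these Fyn passed (limma adjusted p = 0.0147).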

How the data were processed

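FPKM values of 4 normal and 4 HFD fed mice were used as deposited. The authors made the FPKM by checking reads with FastQC, trimming them with Trimmomatic, aligning them to mm10 with STAR and running Cuffnorm with GENCODE M17 (GRCm38.p6), and the values are rounded to 0.1. The versions of these tools are not stated in the sources used. FPKM are already scaled, so read depth is unknown and intervals from counts cannot be given. Their sums per mouse lay between 562431 and 639142.

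Log2(FPKM + 0.1) was compared with limma 3.58.1 in R 4.3.3 (two-sided, variance trend, Benjamini-Hochberg over 13982 genes, those with no 0 and with mean FPKM 1 or higher). Fold changes on this scale understate changes of low genes. Python 3.11.15, numpy 2.4.6, pandas 2.3.3, scipy 1.17.1 and matplotlib 3.10.9 were used for exact permutation over 70 assignments and for figures. Coordinates come from GENCODE M21 on GRCm38. On simulated data over 13982 genes, 99 of 100 genes changed 2-fold and 89 of 100 changed 1.5-fold were recovered, and 7 unchanged genes were called. Each gene was drawn independently there, while the myelin genes moved together by mouse, so these counts do not give the error rate in the real data.

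The 38 genes, their roles, the pairs and the marker lists were chosen with earlier results of these data known. All 38 were to be named, with the 4 most abundant genes of each other list. A mouse is a replicate, and the labels do not say whether mice shared a cage. Alternatives were other added constants, filters and scalings, a constant prior variance, the replicate number as a block and each mouse left out with the genes tested kept. Leaving out normal mice 2 and 3 and the exact test against Mbp were added after seeing the data. Salmon values, circRNAs and protein measurements were not analysed here.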

Additional observations from a re-analysis of the deposited data

Results flagged for a closer look

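A mouse far from the others of its diet (Dixon's criterion for 4 values, the gap to the nearest mouse over the range) was found in 12 of 76 groups, where chance flags about 1 in 20 groups. HFD fed mouse 3 stood above the other HFD fed mice for 9 genes, with FPKM values of 949.5 for Mbp, 78.6 for Mag, 402 for Mobp, 70.2 for Cldn11, 31.3 for Tspan2, 8.3 for Gjc3, 5.8 for Myrf, 9.1 for Plekhh1 and 103.4 for Cryab. Normal mouse 4 stood below the other normal mice for Pllp at 22.5 FPKM and for Gal3st1 at 6.4 FPKM. HFD fed mouse 4 stood above the other HFD fed mice for Enpp2 at 204.9 FPKM, the mouse with the highest choroid plexus markers. The 38 genes are high or low together in a mouse, so these groups are not independent of each other. Nothing in the labels sets these mice apart.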

How the results depend on the processing

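The number of myelin genes that fell, 28, was 21 to 31 with 1 mouse left out, 25 without a variance trend, and 28 of 28 with another added constant, filter or median-ratio rescaling. The number of those lower by over 1.5-fold was 17 to 24 with 1 mouse left out. Without normal mice 2 and 3, a choice made after seeing the data, 15 fell and 10 by over 1.5-fold, all 15 among the 28, and 35 of 38 log2 fold changes were negative. Anln was then at 0.27 and Hapln2 at 0.13. With 1 mouse left out Anln lay between -0.17 and 0.11, above 0 without normal mouse 2 or 3 or HFD fed mouse 2. Of the 29 calls, 22 held in all 8 such comparisons.

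The number less lowered than Mbp, 6, was 3 to 11 with 1 mouse left out, 2 after quantile normalization, 2 without normal mice 2 and 3, and 0 by the exact permutation test, whether adjusted over the 37 or over all genes, and that of genes more lowered was 0 to 1 with 1 mouse left out. Small differences from Mbp changed sign. With 1 added to FPKM, Gjb1 was at 0.015 and Adamts4 at 0.049. After quantile normalization, Cnp was at -0.11, Opalin at -0.14, Aspa at -0.14, Trf at -0.0217, S1pr5 at -0.0609 and Lpar1 at -0.086. With 1 mouse left out, Opalin lay between -0.087 and 0.12, below 0 without normal mouse 2 or 3 or HFD fed mouse 1 or 3. Aspa lay between -0.056 and 0.10, below 0 without normal mouse 2 or 3 or HFD fed mouse 4. Without normal mice 2 and 3, Cnp was at -0.0664, Opalin at -0.25, Aspa at -0.086 and S1pr5 at -0.019. The difference between S1pr5 and Lpar1 lay between -0.046 and 0.076 with 1 mouse left out, below 0 without normal mouse 2. The number of pairs past the adjusted threshold says nothing of stability, since 5 pairs at the smallest exact p that 4 against 4 mice allow do not pass.

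In the other mature oligodendrocyte list the number lower was 12 with a mean FPKM of at least 5, where fewer genes are tested, and 10 without normal mice 2 and 3. The number higher was 0 with median-ratio rescaling, no variance trend, the replicate block or without normal mice 2 and 3, and 0 to 1 with 1 mouse left out. Among lineage factors 1 to 4 fell and 0 to 1 rose with 1 mouse left out, 0 fell without normal mice 2 and 3, and 0 rose without a variance trend or with the replicate block. Among precursor genes 5 fell and 0 rose with a mean of at least 5. That filter left out Cspg4 and Sox6, which had risen, and Enpp6, Vcan and Cacng4, which had fallen. In that list 1 rose after quantile normalization, and 1 to 2 rose with 1 mouse left out. Without normal mice 2 and 3, 5 fell and 1 rose. Apart from genes left out by the filter, the cause of these moves was not tested.

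The replicate number is only a name, as the correlation over genes of same-numbered mice lay between -0.11 and -0.03. No mouse correlated best with the mouse of its own number. With the replicate block 25 myelin genes fell, 19 by over 1.5-fold, and 9 were less lowered than Mbp. Read depth behind each FPKM is unknown, and rounding to 0.1 limits genes near 1 FPKM.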
